A study of Homo sapiens with 18 samples.

Results

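The CREB family and its coactivators were examined as the genes CREB1, CREM, ATF1, ATF2, CREB5, CREBBP, EP300, CRTC1, CRTC2 and CRTC3, by all probe sets that the annotation of the array assigns to these symbols. A probe set is a group of short probes that together give 1 signal for a transcript. 31 of the 54675 probe sets were assigned to 9 of the 10 genes, and ATF1 was not analysed here. The cells were SH-SY5Y, a human neuroblastoma line, which retinoic acid turns toward a neuronal form, and all of them had been differentiated for 7 days in 10 μM retinoic acid and kept without it for a day. They then received 0, 1 or 5 μM cocaine for 30 min, and RNA was taken at 6 or 24 h. The labels of the 5 μM arrays are not uniform, since titles and sources give that dose and their treatment field adds that these are controls without treatment, and the stated dose was used. 3 Affymetrix U133 Plus 2.0 arrays were made for each dose at each time, 18 in all, each from a pool of 3 dishes, so the spread between arrays is that between pools of 1 cell line.

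CREB1 binds the cAMP response element (CRE) in promoters as a dimer, and it activates transcription once protein kinase A, calcium and calmodulin dependent kinases or kinases of the ERK pathway have phosphorylated it. The phosphorylated form recruits the acetyltransferases CBP (CREBBP) and p300 (EP300), whereas the CRTC coactivators enter the nucleus when calcineurin removes their phosphates and bind CREB directly. In neurons this pathway links activity and drugs of abuse to transcription, and most of that control acts on the proteins, which arrays do not measure.

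The DNA word that gives the family its name was looked for in the promoter windows of the RefSeq annotation of GRCh38.p14, which run from 250 bases before to 50 after each start site. Windows were at hand for 8 of the 10 genes (ATF2 and CRTC2 had no entry). The full element TGACGTCA, which reads the same on both strands, was in 1.85% of 35116 windows and 2.25% of the 27305 genes with a window. 1 of the 8 members held it, CREM, at a start site inside the gene. Among 29 genes of a list of known CRE targets, 5 (17.2%) held it. The elements of CREM and of these targets follow, with the bases around them, each read 5′ to 3′ on the strand of the gene, with the element in capitals.
CREM, chr10:35195841-35195870, plus strand: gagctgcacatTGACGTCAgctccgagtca
SST, chr3:187670423-187670452, minus strand: gcctcctagccTGACGTCAgagagagagtt
VGF, chr7:101165630-101165659, minus strand: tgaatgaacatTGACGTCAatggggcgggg
CARTPT, chr5:71719121-71719150, plus strand: ccggcgggcatTGACGTCAagcgccggcgg
DUSP1, chr5:172771302-172771331, minus strand: ggcagggcgggTGACGTCAccgccccgtca
CHGA, chr14:92923085-92923114, plus strand: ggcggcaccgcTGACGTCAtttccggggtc

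The 8-base words are identical because the search took exact matches only, and the flanking bases differed from gene to gene. The shorter core TGACG, searched on both strands and contained in the full element on each, was in 24.6% of the windows and 28.4% of the genes, and in 3 of the 8 members (CREM, CREBBP and CRTC3). CREBBP held it at positions -97 and -81 from its start site, within the overlapping stretches shown next.
CREBBP, first match, chr16:3880793-3880822, minus strand: ggccgtgcgtggTGACGccgcgggggggtg
CREBBP, second match, chr16:3880777-3880806, minus strand: gccgcgggggggTGACGcaccggcgtgccc
CRTC3, chr15:90529730-90529759, plus strand: actttgtcgggcTGACGggggtccctccag

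A match is a description of the letters and not of binding. The files used here do not give where in its gene a probe set lies, so the windows could not be set beside single probe sets.

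The deposited values were log2 signals from RMA, a method that corrects, normalizes and summarizes the probes, and the authors ran it separately for each time. Probe sets were tested if their mean over the 9 arrays of a time lay above log2(40), that is 5.32, and if they had a gene symbol. 25 of the 31 member probe sets were kept among 22455 at 6 h, and 26 among 24307 at 24 h. All 7 of CREB1 were kept, 5 of 6 of CREM, 2 of 3 of ATF2, 3 of 4 of CREB5 at 6 h and all 4 at 24 h, 2 of 4 of CREBBP, both of EP300, both of CRTC1, the only one of CRTC2 and 1 of 2 of CRTC3. The others, among them CREM 210171_s_at with 3.53 to 3.97 and ATF2 1555146_at with 2.58 to 3.08, were below the filter and give no reading of a change.

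4 facts about the arrays bear on the results. CYP26A1, a gene that retinoic acid induces, was at 4.95 to 5.61 on the 6 cocaine arrays of 6 h, against 5.01, 10.69 and 10.99 on the untreated ones (numbers 1, 2 and 3). The difference between the 3′ and 5′ control probe sets of ACTB, which moves with RNA quality, was 0.493 to 0.539 at 5 μM and 0.548 to 1.12 at 0 μM at 6 h, and 0.686 to 1.03 at 5 μM and 0.488 to 0.654 at 0 μM at 24 h, so the 5 μM and 0 μM arrays did not overlap in it at either time. Between the bioD and cre spike-in controls, added for the hybridization, the difference at 6 h was -1.04 to -0.929 at 0 μM, -1.44 to -1.41 at 1 μM and -1.55 to -1.37 at 5 μM, so it too separated the untreated arrays from all 6 cocaine arrays, and at 24 h it was -1.17 to -1.15 at 0 μM and -1.14 to -1.05 with cocaine. Their part in the results was not tested. 8 of 9 measured markers of adrenergic neuroblastoma cells lay above the filter, with TH, which makes the dopamine precursor, below it at both times, and 6 of 8 markers of mesenchymal neuroblastoma cells did too, with PRRX1 and YAP1 below it.

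At 6 h after 5 μM cocaine, no member probe set passed the main test against untreated cells, which did not pair the arrays. limma called 0 of 25 at an adjusted p under 0.10, where 2.98% of all 22455 probe sets were called, and 3 of 25 had an unadjusted p under 0.05, where 17.2% of all did. The log2 fold changes of the members ran from −0.45 to 0.28 with a median of -0.03, beside a median of -0.02 over all probe sets, and 19 of the 25 had a 95% interval that stayed inside ±0.5. The arrays of 5 μM and 0 μM did not overlap for 4 members, 1 higher and 3 lower, beside 8.09% and 13.1% of all probe sets. The replicate numbers paired the arrays, in that arrays with the same number deviated together at every dose. With the number as a block, 3 members passed, all lower at 5 μM (ATF2 212984_at, CREM 230511_at and CREB1 225572_at), where 18.6% of all probe sets passed and 10.9% were lower. In these bulk RNA pools, fewer cells of a kind and less RNA per cell cannot be told apart.

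**Figure D1:**
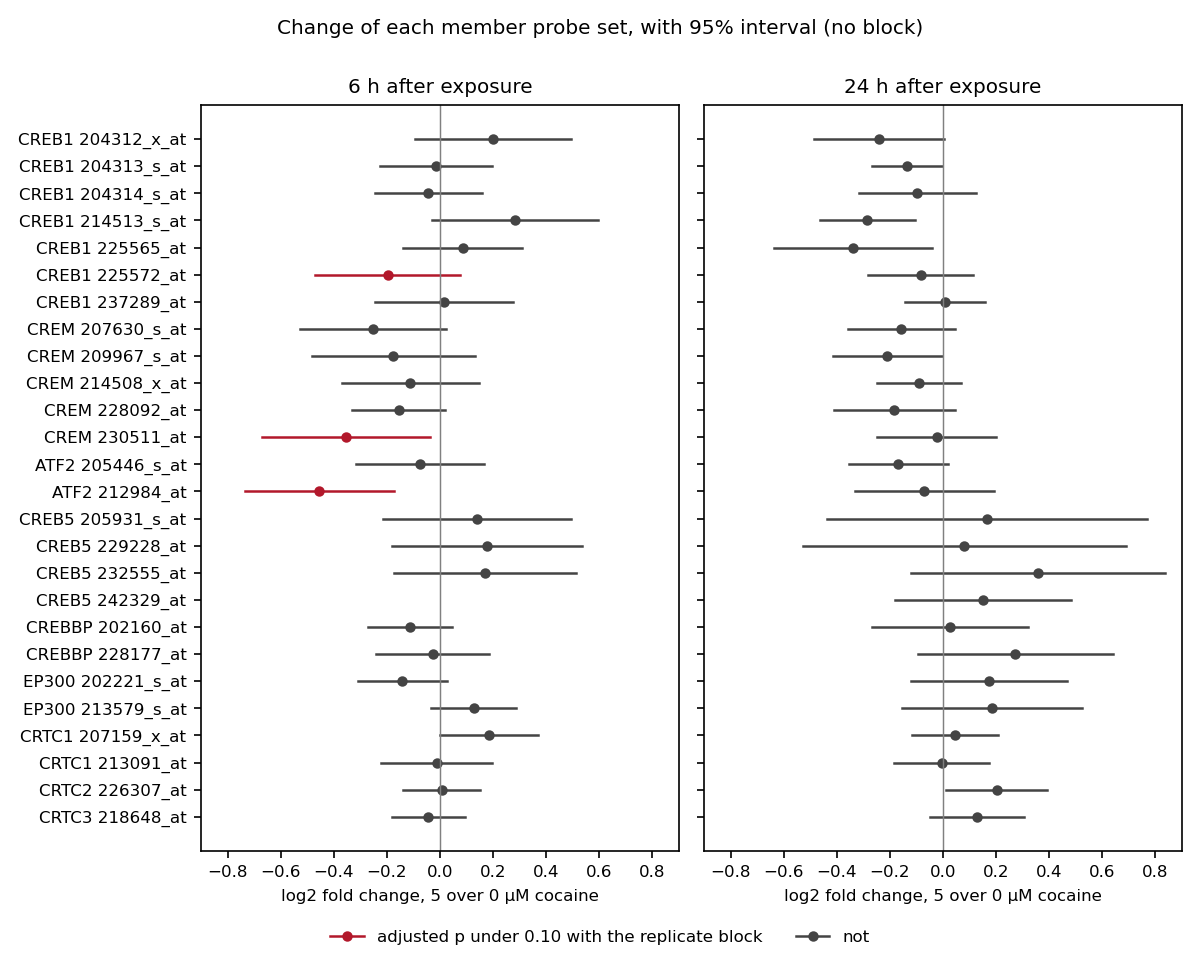
Log2 fold change of 5 over 0 μM cocaine for each kept probe set, at 6 h (left) and 24 h (right), with points for the estimate and bars for the 95% interval of limma without the block (3 arrays per dose). The 3 members in red passed an adjusted p of 0.10 with the replicate block at 6 h, none did at 24 h, and the 24 h intervals of CREB5 are among the widest.

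CREB1 had 7 probe sets, whose changes from 0 to 5 μM ran from -0.20 to 0.28 at 6 h and from -0.34 to 0.01 at 24 h. The gene lies at chr2:207529962-207605988 (GRCh38.p14) and encodes the activator after which the family is named. At 6 h, 225572_at had log2 signals of 9.87, 10.23 and 10.11 at 0 μM, 9.69, 9.97 and 10.04 at 1 μM, and 9.74, 9.91 and 9.97 at 5 μM. Each cocaine array lay below the untreated array of the same number, although the dose groups overlapped, and replicate 1 was the lowest at every dose. Its change from 0 to 5 μM was -0.20 (SE 0.12, 95% interval -0.47 to 0.08) with an adjusted p of 0.437 in limma, and 0.0724 with the block. Within replicate number 1, whose untreated array was not high in CYP26A1, the difference was -0.13 at 5 μM and -0.19 at 1 μM. The mean of all 3 arrays of 5 μM minus untreated array 1 was -0.00.

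214513_s_at of CREB1 had 7.07, 6.84 and 6.59 at 0 μM, 6.67, 6.94 and 6.82 at 1 μM, and 6.93, 7.30 and 7.12 at 5 μM at 6 h. The groups of 5 and 0 μM overlapped, since untreated array 1 was above the lowest 5 μM array, and the change was 0.28 (SE 0.137) with an adjusted p of 0.333 in limma. By replicate number the 5 μM array minus the untreated one was -0.14, 0.46 and 0.53, so number 1 went against the others. The other 5 probe sets changed by between -0.04 and 0.20, with adjusted p-values of 0.467 to 0.963.

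At 24 h the CREB1 probe sets 214513_s_at, 204312_x_at and 225565_at were highest on average at 1 μM or at 0 μM and lowest at 5 μM. For 214513_s_at the arrays had 7.16, 7.24 and 7.18 at 0 μM, 7.46, 7.41 and 7.30 at 1 μM, and 6.76, 6.94 and 7.02 at 5 μM, with no overlap between any of the doses. The change from 0 to 5 μM was -0.29 (SE 0.079, 95% interval -0.47 to -0.11), with the smallest adjusted p of the family at that dose and time in limma without the block, 0.525. With the block it was 0.19, and the smallest was 0.168, of 225565_at. 204312_x_at, whose suffix marks probes that can also bind other transcripts, had 7.37, 7.45 and 7.27 at 0 μM, 7.61, 7.72 and 7.50 at 1 μM, and 7.02, 7.36 and 6.99 at 5 μM. Its 5 μM arrays lay below all 1 μM arrays, by -0.49 on average (SE 0.108), and the adjusted p for 5 against 1 μM was 0.559 in limma and 0.147 with the block. For 225572_at the difference between 5 and 1 μM was in the same direction but smaller, -0.05.

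**Figure D2:**
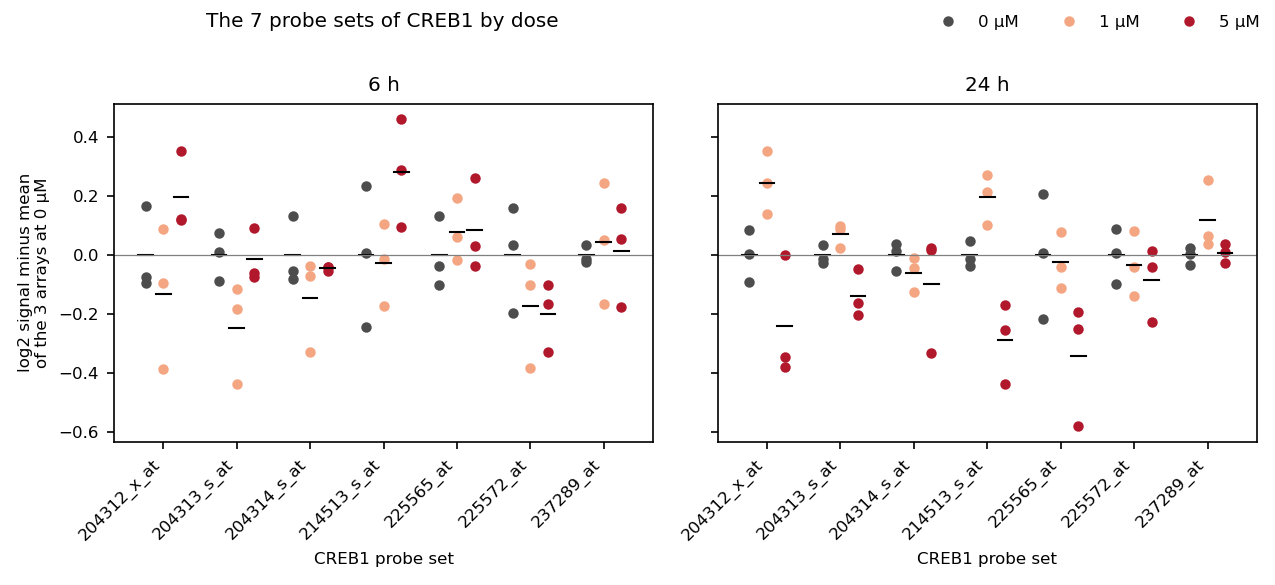
Log2 signal of each array minus the mean of the 3 untreated arrays of its time, for the 7 probe sets of CREB1 at 6 h (left) and 24 h (right), with 0, 1 and 5 μM from left to right in each column and black lines for means. At 24 h the 5 μM means of 214513_s_at and 225565_at lie 0.29 and 0.34 below the untreated mean, whereas 237289_at lies at 0.01.

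The change from 0 to 5 μM differed between the times for 1 of 25 member probe sets, CREB1 214513_s_at, by 0.57 (SE 0.165, adjusted p 0.0925 in limma over 22358 probe sets kept at both times, of which 4.21% were called). It was 0.33 (SE 0.17, not called) without the 2 untreated 6 h arrays high in CYP26A1, a fit that leaves 1 untreated array at 6 h and takes its spread from the other groups. With the block 5 member probe sets were called, where 15.9% of all were, namely this one (adjusted p 0.0527), CREB1 204312_x_at and 225565_at, CREM 230511_at and ATF2 212984_at. The 3 of CREB1 were higher at 6 h than at 24 h in their change, by 0.57, 0.44 and 0.43, and the other 2 lower, by -0.33 and -0.38. The remaining CREB1 probe sets were not called. They differed by 0.12 (204313_s_at), 0.05 (204314_s_at), 0.01 (237289_at) and -0.11 (225572_at, the brightest). The ACTB measure and the spike-in difference given above also separated the 5 μM arrays from the untreated ones at both times. Both were lower at 5 μM at 6 h and higher at 24 h, and their part in these values was not tested.

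CREM encodes activators and repressors from 1 gene, among them the short repressor ICER, which cAMP induces from a start site inside the gene. The 5 kept probe sets all had lower means at 5 μM than in untreated cells at both times, with changes between -0.35 and -0.11 at 6 h and between -0.21 and -0.02 at 24 h, and none passed limma without the block. 230511_at had 6.67, 6.45 and 6.58 at 0 μM, 6.57, 5.98 and 6.18 at 1 μM, and 6.32, 6.10 and 6.21 at 5 μM at 6 h. Every 5 μM array lay below every untreated one, and the 1 μM arrays ran from below the 5 μM range into the untreated range. The change was -0.35 (SE 0.139, 95% interval -0.67 to -0.04, adjusted p 0.247 in limma and 0.0416 with the block). By replicate number it was -0.34, -0.35 and -0.37, and the untreated array of number 1 was not high in CYP26A1. With that array as the only control it was -0.45. The spike-in difference given above also separated the 5 μM arrays from the untreated ones, and the part of either was not tested. At 1 μM the change was -0.32, with an adjusted p of 0.341 in limma and 0.0651 with the block. The same probe set at 24 h had 6.28 to 6.64 at 0 μM, 6.48 to 6.58 at 1 μM and 6.32 to 6.53 at 5 μM, and the doses overlapped.

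The other CREM probe sets overlapped between doses at 6 h except 214508_x_at, with 8.11 to 8.20 at 5 μM and 8.22 to 8.30 at 0 μM, a difference of -0.11 whose 95% interval was -0.37 to 0.15. 207630_s_at had 7.77 to 8.02 at 5 μM and 7.97 to 8.20 at 0 μM at 6 h and overlapped (difference -0.25, adjusted p 0.325).

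ATF2 binds CRE-like elements, mostly as a partner of JUN, and answers to the stress kinases JNK and p38. Its probe set 212984_at had the smallest p of the family at 6 h. The arrays had 10.67, 10.87 and 10.67 at 0 μM, 10.10, 10.48 and 10.47 at 1 μM, and 10.10, 10.36 and 10.38 at 5 μM, so both cocaine doses lay wholly below untreated cells and overlapped each other. The means were 10.28 ± 0.156 at 5 μM and 10.73 ± 0.119 at 0 μM (SD, n = 3 each). The change was -0.45 at 5 μM (SE 0.123, 95% interval -0.73 to -0.17, adjusted p 0.124 in limma and 0.0232 with the block). At 1 μM it was -0.38 (SE 0.123, adjusted p 0.25 in limma and 0.0495 with the block). By replicate number the difference at 5 μM was -0.56, -0.51 and -0.28, and the untreated array of number 1 was not high in CYP26A1. With that array as the only control the difference was -0.39. The part of the arrays high in CYP26A1 was not tested. The spike-in difference given above separated the same arrays as this probe set.

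At 24 h the difference at 212984_at was -0.07 (95% interval -0.33 to 0.19), with the 3 arrays of 5 μM on both sides of the 10.86 to 10.91 at 0 μM. The other kept probe set of ATF2, 205446_s_at, changed by -0.08 at 6 h, with 6.21 to 6.55 at 5 μM and 6.31 to 6.45 at 0 μM. At 24 h it was the one without overlap, with 6.42 to 6.44 at 5 μM and 6.54 to 6.65 at 0 μM, a change of -0.17 (adjusted p 0.713).

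**Figure D3:**
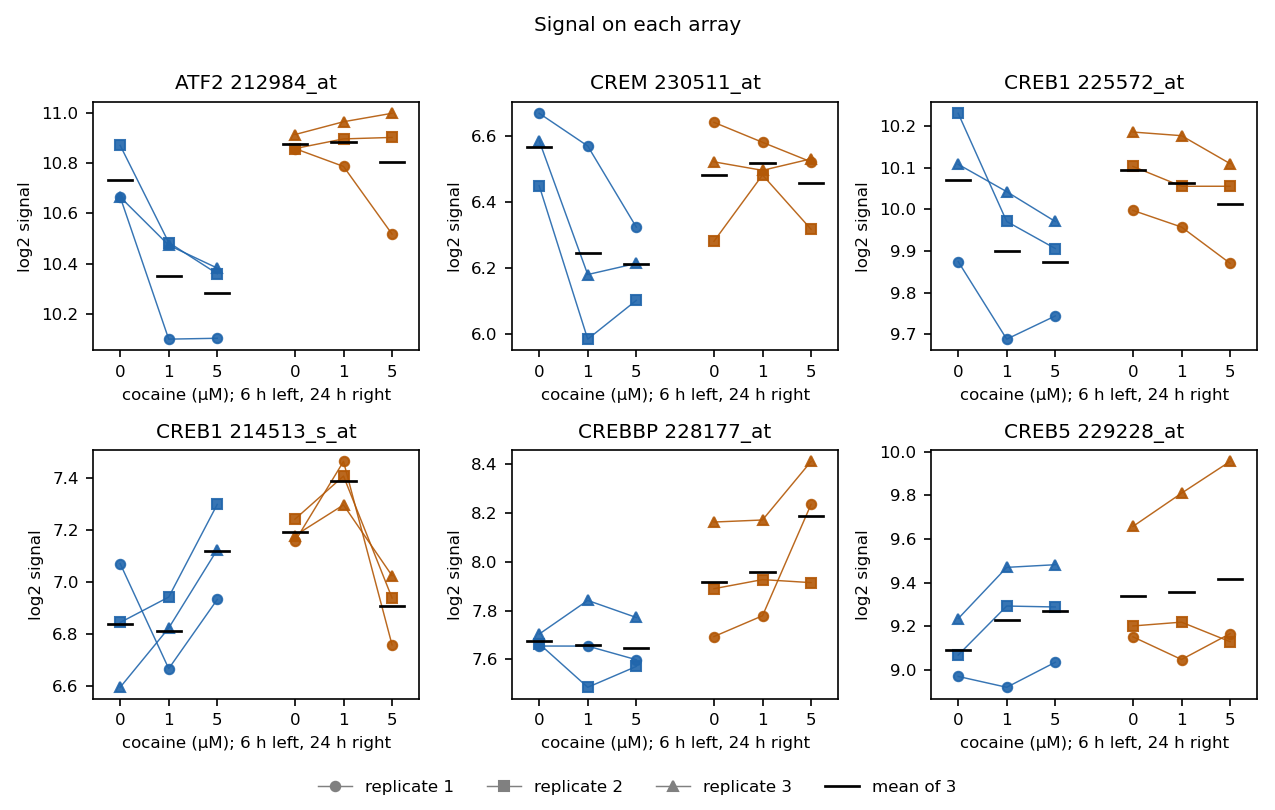
Log2 signal on each array for 6 probe sets by cocaine dose, at 6 h (blue, left) and 24 h (orange, right) in each panel, with lines that join arrays of 1 replicate number and black bars for means of 3. In ATF2 212984_at at 6 h the cocaine arrays span 10.10 to 10.48 and the untreated ones 10.67 to 10.87, while CREB5 229228_at has its highest array in replicate 3 at every dose.

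CREB5 is a relative of ATF2 that also binds CREs. Its means were higher with 5 μM than without cocaine in all kept probe sets, by 0.14 to 0.18 at 6 h and 0.08 to 0.36 at 24 h, with adjusted p-values of 0.606 or more. With untreated array 1 as the only control at 6 h the differences were 0.43 for 232555_at, 0.30 for 229228_at and 0.24 for 205931_s_at. That array was the lowest untreated one in each of them. Within replicate number 1 the difference was 0.29 for 232555_at and 0.065 for both 229228_at and 205931_s_at, so the larger values do not hold within the pair for these last. 232555_at at 1 μM and 6 h had 6.39, 6.42 and 6.73 at 1 μM and 6.02, 6.28 and 6.57 at 0 μM. These overlapped, but each array was above that of the same number. The change of 0.22 had an adjusted p of 0.531 in limma and 0.077 with the block. With the block, 229228_at had 0.216 and 205931_s_at 0.458 in the same comparison. At 24 h 229228_at had 9.15, 9.20 and 9.66 at 0 μM, 9.05, 9.22 and 9.81 at 1 μM, and 9.17, 9.13 and 9.96 at 5 μM, with replicate 3 highest at each dose, and 205931_s_at had 7.72, 8.04 and 8.20 in replicate 3 and 7.21 to 7.46 in the others. In both, the replicates differed more than the dose means. The arrays numbered 3 also had the highest CYP26A1 of each dose at 24 h, with 9.55 at 0 μM, 5.70 at 1 μM and 6.31 at 5 μM and 4.92 to 6.04 on the others, and its part was not tested. 232555_at had 6.08, 6.67 and 6.81 at 0 μM, 6.51, 6.87 and 6.74 at 1 μM, and 7.07, 6.52 and 7.04 at 5 μM, where replicate 3 was highest only in untreated cells and the doses overlapped.

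CREBBP and EP300 are the acetyltransferases that phosphorylated CREB1 recruits, and they serve many other factors. CREBBP 202160_at had 9.48 to 9.64 at 5 μM and 9.60 to 9.68 at 0 μM at 6 h, a change of -0.11 (95% interval -0.27 to 0.04). At 24 h 228177_at had 8.24, 7.91 and 8.41 at 5 μM and 7.69, 7.89 and 8.16 at 0 μM, and most of its change of 0.27 (adjusted p 0.766) came from replicates 1 and 3. EP300 213579_s_at at 6 h had 7.52, 7.44 and 7.56 at 5 μM and 7.40, 7.36 and 7.37 at 0 μM. It was the only kept member with all 5 μM arrays above the untreated ones at that time, by 0.13 (SE 0.0704, adjusted p 0.39), whereas EP300 202221_s_at changed by -0.14, with 6.98 to 7.05 at 5 μM and 7.04 to 7.28 at 0 μM. The differences of 202221_s_at and 213579_s_at at 24 h were 0.17 and 0.18 (adjusted p 0.833 and 0.852).

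The CRTC genes encode the coactivators that calcineurin brings into the nucleus. At 6 h CRTC2 226307_at was at 7.44 to 7.61 at 5 μM and 7.46 to 7.61 at 0 μM, and its change of 0.01 had a 95% interval of -0.14 to 0.15, among the narrowest of the family. At 24 h it had 7.62, 7.77 and 7.72 at 5 μM and 7.35, 7.63 and 7.51 at 0 μM. Each array was above that of the same number, by 0.20 on average (SE 0.0837), with an adjusted p of 0.661 in limma and 0.176 with the block. CRTC3 218648_at did not overlap at 24 h, with 9.58 to 9.81 at 5 μM and 9.51 to 9.55 at 0 μM (difference 0.13, adjusted p 0.774), and changed by -0.04 at 6 h. CRTC1 207159_x_at differed by 0.19 at 6 h (adjusted p 0.288), and its second probe set 213091_at by -0.01.

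At 24 h limma called 0 of 26 members for 5 against 0 μM, where 0.0123% of all probe sets were called, and 0 with the block (0.00823% of all), and 5 had an unadjusted p under 0.05, where 7.2% of all did. The arrays did not overlap for 1 member that was higher and 3 that were lower, beside 5.94% and 4.51% of all. For 5 against 1 μM, 0 of 26 members were called (0.00823% of all, and 0.00411% with the block), and 7 were lower without overlap, beside 6.17% of all. 5 of these 7 were probe sets of CREB1, the others CREM 214508_x_at and ATF2 205446_s_at, and 5 members had an unadjusted p under 0.05, where 6.12% of all did. Both comparisons use the same 5 μM arrays.

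For 1 against 0 μM at 6 h, limma called 0 of 25 members and 0% of all probe sets, and 3 members had an unadjusted p under 0.05, beside 14.3%. With the block 3 were called, where 12.5% of all were, namely ATF2 212984_at and CREM 230511_at (lower) and CREB5 232555_at (higher). For 5 against 1 μM at 6 h, 0 members and 0% of all probe sets were called with or without the block, and 2 had an unadjusted p under 0.05 without it, beside 6.45%. Both were probe sets of CREB1, 204312_x_at (0.33) and 204313_s_at (0.23), and in both all 5 μM arrays lay above the 1 μM arrays, as in 6.26% of all probe sets. For 1 against 0 μM at 24 h, 0 members and 0% of all were called, and 2 had an unadjusted p under 0.05, beside 3.37%.

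Probe sets of the same gene were compared by the difference between that with the highest mean and each other one on the same array. There were 16 such pairs at 6 h and 17 at 24 h, over 7 genes. The difference did not overlap between 5 and 0 μM in 3 pairs at 6 h and 4 at 24 h, beside 32.8% of 9491 pairs and 14.7% of 10490 pairs over all genes. No pair can pass by the exact 2-sided permutation test, since its smallest p with 3 arrays against 3 is 0.1, and the smallest adjusted p-values were 0.533 and 0.425. In ATF2 at 6 h, 212984_at lay 3.81 to 4.17 above 205446_s_at at 5 μM and at least 4.22 above it at 0 μM, a change of -0.38. In CREB1 the difference of 225572_at to 225565_at changed by -0.28 at 6 h and by 0.26 at 24 h, without overlap at either time. In EP300 the change was 0.27 at 6 h and 0.01 at 24 h.

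Genes that the CREB pathway acts on or depends on were counted at 6 h from lists of textbook members. The lists were chosen with earlier results of these data known, so their shares are a description and no separate test. Over all 11943 genes with a kept probe set, for 5 against 0 μM 2.59% had at least 1 called higher and 2.47% at least 1 called lower in limma, and 12% and 17.7% with the block. Of 36 CRE target genes 21 had a kept probe set, and 0 were called for 5 against 0 μM. The smallest p-values were those of the clock gene PER2 (0.37, adjusted p 0.267) and the survival gene MCL1 (0.12, adjusted p 0.297). FOS, the immediate early gene whose CRE is a classical CREB site, changed by -0.00. Its SE was 0.393, so a change in either direction is not excluded. NR4A1 changed by -0.16 to -0.09 over its 3 probe sets. Of the 5 targets with the full element, 3 were kept, CHGA (-0.15), DUSP1 (-0.17) and VGF (-0.09), and none was called. With the block 1 target was called higher (PER2, adjusted p 0.0237) and 2 lower (BCL2 and CHGA). The median over the target probe sets was -0.01, beside -0.02 over all.

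Among kinases and phosphatases of CREB and CRTC, 34 of 35 genes were kept, and at least 1 probe set was called higher in 3 of them (8.82%) and lower in 2 (5.88%). Higher were CAMKK2 (0.40, adjusted p 0.0413) and CAMK4 (0.35, 0.0977), which form the calcium kinase cascade to CREB, and HIPK2 (0.46, 0.0927), a nuclear kinase. Lower were RPS6KA1 (-0.36, 0.0573), a ribosomal S6 kinase of the ERK pathway, and the protein phosphatase 1 subunit PPP1CB (-0.49, 0.0584), all adjusted p-values from limma. 1 probe set passed in each, of 2 kept for CAMKK2, 3 for CAMK4, 6 for HIPK2, 1 for RPS6KA1 and 4 for PPP1CB. The others of HIPK2 had values on both sides of 0, and the other of CAMKK2 went the opposite way, with -0.09. With the block these counts were 11 (32.4%) and 6 genes (17.6%). The median over the list was 0.03.

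Of the other bZIP factors, the relatives that share the dimer-forming leucine zipper, 25 of 28 were kept. JUN (0.50, adjusted p 0.0432 in limma), which pairs with ATF2, and ATF5 (0.33, 0.0973) were higher, and CREBL2 (-0.30, 0.0575) was lower. The 4 kept probe sets of JUN all had higher means (0.11 to 0.50), those of ATF5 ran from -0.20 to 0.33. Among acetyltransferases and partners of CBP and p300, 20 of 24 were kept and 1 was lower, RELA (-0.30, adjusted p 0.0457), a subunit of NF-κB that p300 acetylates, by 1 of its 2 probe sets. With the block 5 bZIP factors were higher and 2 lower, and 2 acetyltransferases or partners higher and 4 lower. The medians of these lists were -0.02 and -0.05. In retinoic acid genes, 8 of 9 kept, 0 were called without the block and 7 were lower with it, with a median of -0.34, and the same untreated arrays were high in CYP26A1. With untreated array 1 as the only control, a fit that takes its spread from the other doses, limma called 0 of all 22455 probe sets for 5 against 0 μM at 6 h. The 9 called probe sets of the lists had 0.32 to 0.57 in that fit where they were higher and -0.57 to -0.27 where they were lower. Their direction was the same there and within replicate number 1. They had been called on these same arrays, so this is no separate check of them. In the other pairwise comparisons 0 genes of these lists were called without the block. With it, 1 against 0 μM at 6 h had 2 targets higher and 0 lower, 8 kinase or phosphatase genes higher and 4 lower, 6 bZIP factors higher and 2 lower, 0 acetyltransferases and partners higher and 4 lower, and 1 retinoic acid gene higher and 3 lower, where 8.49% of all genes were higher and 11.9% lower.

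**Figure D4:**
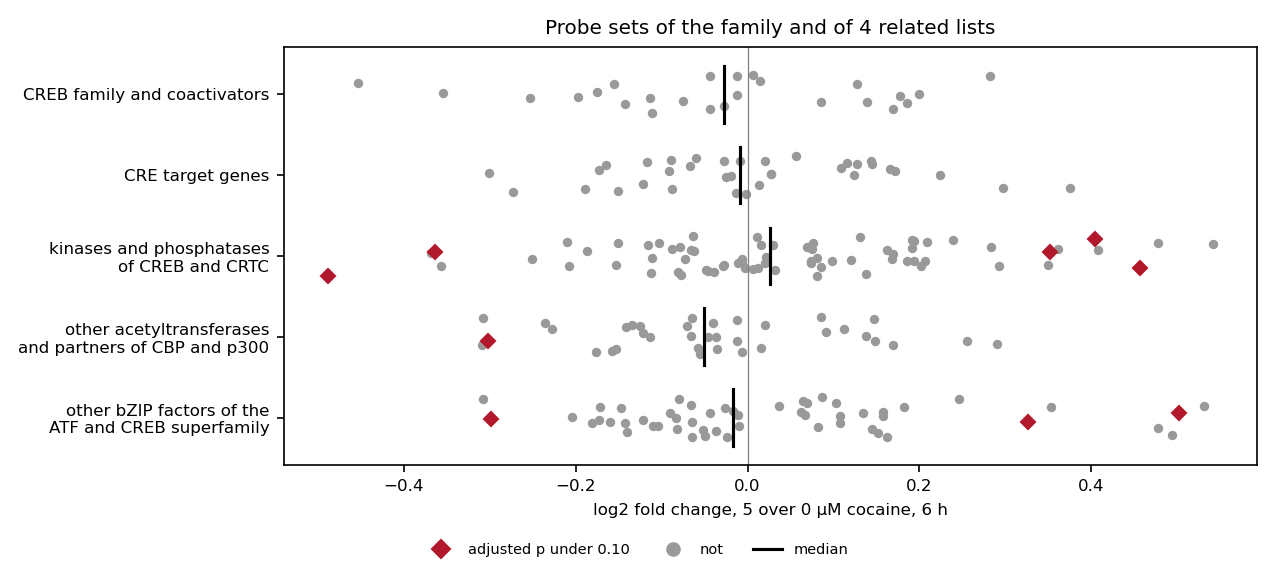
Log2 fold change of 5 over 0 μM cocaine at 6 h for each kept probe set of the CREB family and of 4 related lists, with red diamonds for an adjusted p under 0.10 in limma without the block and black lines for medians. The family has 0 of 25 called and spans -0.45 to 0.28, and the list medians lie between -0.05 and 0.03.

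The genes whose signals followed CREB1 225572_at most closely over the 9 arrays of 6 h were IPMK (Pearson r 0.988), BICRAL (0.982) and ZNF189 (0.981). Over the 9 arrays of 24 h their r was 0.805, 0.553 and 0.747. For CREBBP 202160_at they were LINC01003, SLC35F5 and LINC00851, with r of 0.924, 0.923 and 0.920 at 6 h and 0.582, 0.143 and 0.371 at 24 h. These were the highest values among all probe sets with 1 symbol, the arrays share dose and replicate number, and the values are a description only.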

How the data were processed

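Log2 signals of 18 arrays were deposited by the authors, made with RMA separately for each time (its version is not given in the sources used here). These values were not filtered. Probe sets were named from the annotation of the array, in which 41091 had 1 symbol, and those with a symbol and a mean above log2(40) were tested at each time with limma 3.58.1 in R 4.3.3 (with data.table, version 1.17.8, Python 3.11.15, matplotlib 3.10.9). The 9 arrays of a time were fitted by dose, with Benjamini-Hochberg adjustment over all probe sets kept and a threshold of 0.10, and the difference between times was fitted on all 18. The scripts were tested on simulated data.

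Arrays with the same replicate number deviated together, their correlations lying between 0.377 and 0.768 (6 h) and between 0.424 and 0.733 (24 h) in 9 pairs per time, while those of different numbers lay between -0.632 and 0.165 in 18 pairs per time. The number was therefore used as a block in an alternative fit. The main fit had dose groups only and did not use this pairing, since the study's methods state no block. Further alternatives changed the signal filter, the annotation filter, the arrays in the fit, the variance model (trend or array weights), the normalization (quantile or median), the threshold (0.05) and the probe sets per gene, or left out single arrays.

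The members and lists were chosen with earlier results of these data known. The text names all members, the called genes of each list at 6 h or the 2 with the smallest p, 3 genes most like CREB1 and CREBBP, and CYP26A1. FOS, NR4A1 and the targets with a full element were chosen after their values were seen. The number of arrays limits the precision.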

Additional observations from a re-analysis of the deposited data

Results flagged for a closer look

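CREB1 214513_s_at was singled out because its change from 0 to 5 μM cocaine differed between the times by 0.57 on the log2 scale, with 0.28 at 6 h and -0.29 at 24 h (adjusted p 0.0925 in limma, 0.0527 with the replicate block). The call was lost on leaving out any of 14 of the 18 arrays in turn. It held without array 1 of each dose at 6 h or without array 3 of 5 μM at 24 h. 4.21% of all probe sets passed the same test. The other CREB1 probe sets differed between the times by values from -0.11 (225572_at) to 0.44 (204312_x_at).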

How the results depend on the processing

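The count of member probe sets called for 5 against 0 μM at 6 h was 0, and it was 1 with all 18 arrays in the fit (6.4% of all probe sets called), 4 with array weights (14.7%) and 3 with the replicate block (18.6%). Leaving out single arrays gave 0 to 1. The 1 was ATF2 212984_at without untreated array 1 (adjusted p 0.0932) or without 1 μM array 1 (0.0865). Of all 22455 probe sets, 2432 were called in the first of these fits and 623 in the second. The count over all probe sets was 670 and moved between 0 (without 5 μM array 2), 1 (without 5 μM array 3) and 2432 (without untreated array 1). It was 29 or 66 without untreated array 2 or 3, 233 or 378 without 1 μM array 2 or 3 and 87 without 5 μM array 1, and 4184 with the block. Centring each array on its median gave 801, 311 higher and 490 lower, against 352 higher and 318 lower. For 1 against 0 μM at 6 h the count of members was 3 with the block, and 0 otherwise. The other 4 pairwise counts were 0 under every alternative, the block included.

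For the difference between times, 1 member was called, and 0 without a signal filter, with arrays centred on their median, at an adjusted p under 0.05 and without both untreated 6 h arrays high in CYP26A1, an alternative chosen after seeing the data that leaves 1 untreated array at that time. It was also 0 with 1 probe set per gene, where 214513_s_at was not tested. Array weights gave 2 (7.81% of all) and the replicate block 5 (15.9%), and leaving out single arrays gave 0 to 1. 7 pairs of probe sets did not overlap, and 6 did not with quantile normalization. Leaving out single arrays gave 7 to 12, with 12 without untreated 6 h array 1. A smaller group can only keep or raise this count, so these values are no check of it. Of 532 values of single probe sets at 6 h for 5 against 0 μM under the alternatives, 501 kept their direction and side of the threshold, 10 newly passed it and 21 changed sign with neither value past it. At 24 h 510 of 528 kept both and 18 changed sign. The causes were not tested.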
